A study of Homo sapiens with 27 samples.

Results

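NLGN1, SHISA9, CSMD2, KCNMA1, BAIAP2 and BCR are 6 genes with known roles in neurons, several of them at the postsynaptic side, and their RNA was followed here in a breast cancer cell line. They were taken by gene symbol from a count file of 26485 genes and had been chosen by their fold changes against control in these same libraries. Their differences between lines are therefore a description, with no p-value given for them. All 6 passed the filter on low counts that kept 14789 genes.

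The study asked how truncating mutations of GATA3, a zinc finger transcription factor of luminal breast epithelium, change gene expression in T47D cells. T47D is a luminal, hormone receptor positive breast cancer line that keeps its own wild-type GATA3. Cells were transduced with lentivirus and kept as puromycin-selected stable pools. The control line carried the empty vector, and the other 3 lines carried a Ty1-tagged GATA3 mutant. These are Splice del, a deletion at a splice site, and the frameshift mutants C321fs and A333fs. RNA sequencing gave 3 libraries per line, and the ChIP-seq of the same study was not used here. The study calls the libraries of a line biological replicates, and the labels do not say whether they came from separate cultures or pools, so p-values measure the spread between these libraries, which may be technical.

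At a synapse, NLGN1 (neuroligin 1) is a postsynaptic adhesion protein that binds presynaptic neurexins. SHISA9 is an auxiliary subunit of AMPA-type glutamate receptors, and CSMD2 is a large transmembrane protein with CUB and Sushi domains. KCNMA1 forms the pore of the calcium- and voltage-activated BK potassium channel. BAIAP2 (IRSp53) bends membranes and links Rac and Cdc42 to actin, and BCR is known both at synapses and as the fusion partner of ABL1 in leukaemia. KCNMA1, BAIAP2 and BCR are widely expressed outside the brain.

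GATA factors bind short sequences built on the letters GATA, so the members' promoters were searched on both strands for 4 motifs, namely AGATAA with its variant AGATAG, and the motif TGATAA with its variant TGATAG. RefSeq promoters of 300 bases (GRCh38.p14, from 250 bases before to 50 after a start site) were matched by symbol for 5 of the members, all but SHISA9, with 11 promoters in all. Of the 11 promoters, 2 held a match, against 8769 of 35116 promoters of this length (25.0%). Both are shown because they hold the only matches, with the matching letters in capitals, and both are read along the minus strand. The CSMD2 promoter lies at chr1:34165181-34165480 and the KCNMA1 promoter at chr10:77350712-77351011, each inside the span of its gene. A match is a description of letters and not a binding site. The study reports a partial motif, AGAT, at the peaks of its mutants, and this was not searched for here. It also places many differential GATA3 peaks in introns or between genes, which these promoters do not cover.
CSMD2: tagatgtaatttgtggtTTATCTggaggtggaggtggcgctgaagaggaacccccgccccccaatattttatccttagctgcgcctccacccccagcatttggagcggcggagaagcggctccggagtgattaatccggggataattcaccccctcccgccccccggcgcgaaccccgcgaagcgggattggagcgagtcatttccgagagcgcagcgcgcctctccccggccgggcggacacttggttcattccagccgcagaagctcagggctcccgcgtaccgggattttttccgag
KCNMA1: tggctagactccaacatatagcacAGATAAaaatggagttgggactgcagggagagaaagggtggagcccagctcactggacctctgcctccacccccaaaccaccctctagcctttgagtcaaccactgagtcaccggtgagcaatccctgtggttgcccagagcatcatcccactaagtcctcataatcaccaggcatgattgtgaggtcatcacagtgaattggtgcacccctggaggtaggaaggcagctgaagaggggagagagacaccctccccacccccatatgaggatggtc

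Libraries held 27872208 to 36788024 counted fragments. Levels are given as CPM, the counts of a gene relative to the TMM-scaled library size, and the TMM factors were 0.884 to 0.943 in control and 1.01 to 1.05 in the mutant lines. GATA3, whose total RNA does not separate the transgene from the gene of the cell, was at 1281 CPM in control and at 1016, 1142 and 1001 CPM in A333fs, C321fs and Splice del. All 11 luminal breast markers were at 1 CPM or more in every line, with a summed level of 20190 to 23430 CPM in the control libraries and 13920 to 16720 in the mutant libraries, and the part of this shift in the results was not tested. Of 23 neuron markers, 5 reached 1 CPM. These were MAP2, SYT1, TUBB3, SYP and STX1A, at 15.9, 14.2, 13.2, 6.17 and 6.13 CPM in control. Another 13 or 14 stayed at or under 3 counts in every library of a line, among them SNAP25, NEFL, GAP43, DCX, STMN2 and GAD2. The summed level of the 23 markers was 54.6 to 59.5 CPM in control, 53.1 to 56.6 in C321fs, 61.5 to 63.0 in Splice del and 60.3 to 63.5 in A333fs.

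Differences are log2 fold changes from an edgeR quasi-likelihood fit of all 12 libraries, with their standard error (SE). A gene is called where the Benjamini-Hochberg adjusted p is under 0.01 and the fold change over 1.5. The gene lists, paralogs included, were also chosen with earlier results of these data known. A call or p-value of a listed gene is therefore a description and not an independent test. The exon GC content of the members ran from 38.8% in NLGN1, at percentile 8.43 of the tested genes, to 60.8% in BCR, at percentile 85.0. Across all tested genes the difference from control moved with GC content, and each fold change of a member against control is therefore also given with the trend of each library over exon GC content and length removed.

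NLGN1 was lower in Splice del and A333fs and near the control level in C321fs. NLGN1 lies at chr3:173398448-174283349 (hg38, plus strand) with 4947 exonic bases. The libraries gave 6.55, 5.74 and 6.28 CPM in control, 3.64, 3.28 and 3.03 with Splice del, 5.20, 6.87 and 6.87 with C321fs, and 2.71, 3.45 and 2.99 with A333fs. Every library of Splice del and A333fs was below every library of control and C321fs, whereas control overlapped with C321fs and Splice del with A333fs. Against control, the log2 fold change of NLGN1 was -0.89 for Splice del (SE 0.13), 0.03 for C321fs (SE 0.12) and -1.02 for A333fs (SE 0.13). Genes of like GC content had a higher median in the mutant lines, at 0.31, 0.33 and 0.31. Once the trend was removed, NLGN1 was at -1.19, -0.26 and -1.34, so its distance from control was larger. The difference between Splice del and C321fs hardly moved, at -0.92 (SE 0.13) as counted and -0.93 with the trend removed. In bulk RNA, fewer cells with a transcript and less of it per cell cannot be told apart, here and for the other genes.

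The neuroligin paralogs were measured in the same libraries. NLGN4X was higher than control in all 3 mutant lines in the edgeR fit, all under the fold limit. Its log2 fold change was 0.49 for Splice del (Benjamini-Hochberg adjusted p = 2.5e-05), 0.25 for C321fs (adjusted p = 0.0075) and 0.40 for A333fs (adjusted p = 0.00014), each by edgeR. With the GC trend removed, NLGN4X was at 0.40, 0.24 and 0.26. NLGN2 was at -0.17, -0.27 and -0.49, and at 0.06, -0.03 and -0.09 with the GC trend removed. NLGN3 did not pass the filter on low counts, with at most 14 counts in a library.

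**Figure D1:**
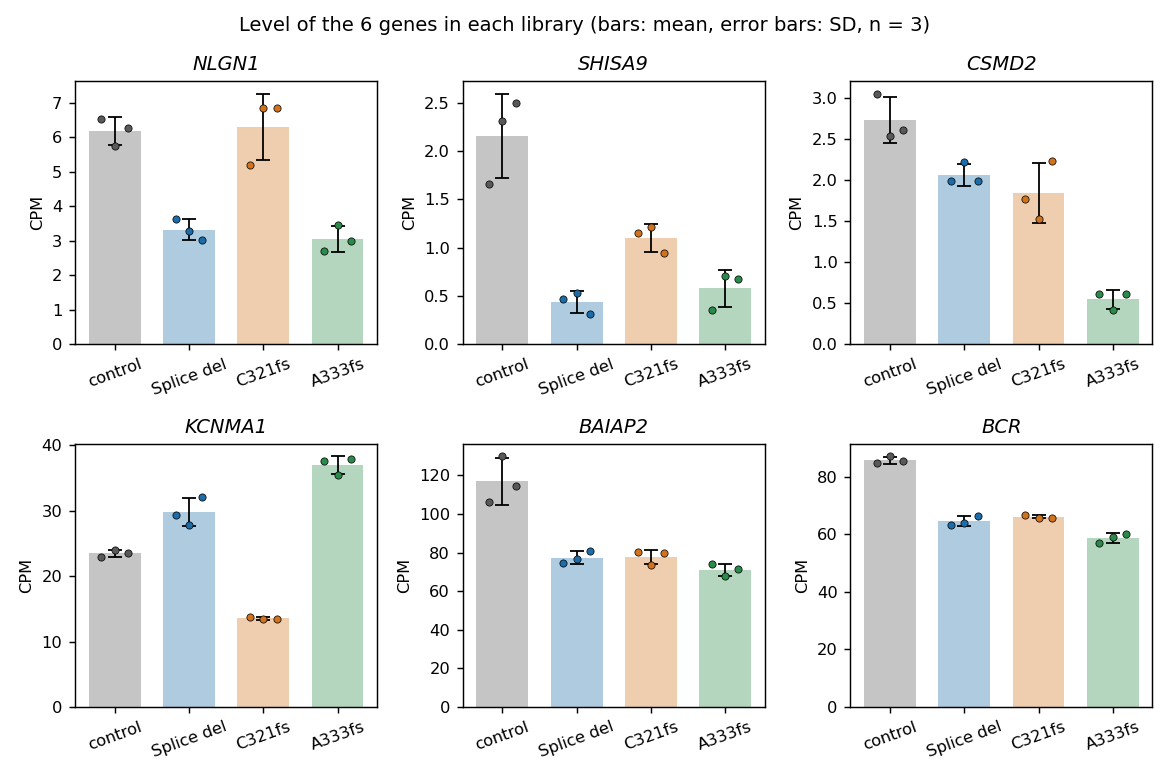
Level of each gene in CPM (vertical axis, from 0) in the 4 lines, with 1 point per library, bars for the mean and error bars for the SD of 3 libraries. NLGN1 is split into 2 high and 2 low lines, CSMD2 has its lowest level in A333fs at 0.548 CPM, and KCNMA1 lies above control in Splice del and A333fs and below it in C321fs.

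SHISA9 was lower than control in every mutant line, most in Splice del. It lies at chr16:12901620-13240416 (plus strand) with 9899 exonic bases and was the least counted of the 6 genes. The libraries gave 1.66, 2.31 and 2.50 CPM in control, 0.464, 0.532 and 0.313 with Splice del, 1.16, 1.21 and 0.939 with C321fs, and 0.355, 0.702 and 0.675 with A333fs. Control stood above all 9 mutant libraries and C321fs above the other mutant lines, whereas Splice del and A333fs overlapped. The log2 fold change of SHISA9 against control was -2.27 for Splice del (SE 0.26), -0.97 for C321fs (SE 0.22) and -1.89 for A333fs (SE 0.25). Removing the GC trend gave -2.35, -0.96 and -2.02. The lowest library held 9 counts, whose 95% Poisson interval of 4.12 to 17.1 covers counting error only. Leaving out 1 library at a time moved the difference from control over -2.43 to -2.11 for Splice del, -2.04 to -1.64 for A333fs and -1.12 to -0.85 for C321fs. The C321fs value was outside the call limits without control replicate 2 (-0.91) or 3 (-0.85) or C321fs replicate 3 (-0.86). Between Splice del and C321fs the difference was -1.31 (SE 0.29), and -1.46 to -1.14 with 1 library left out. It was outside the call limits without any 1 of the Splice del libraries or without C321fs replicate 1 or 2.

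Of the related receptor-associated genes, SHISA6 had no count in any library and SHISA7 at most 2 counts. SHISA8 was at 4.67 ± 0.377 CPM in control (SD, n = 3) and 2.39 ± 0.336 in A333fs. Its log2 fold change in A333fs was -0.97 (adjusted p = 4e-05, edgeR quasi-likelihood F-test, Benjamini-Hochberg adjusted), and it was -0.44 and not called with the GC trend removed.

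CSMD2 stood out in A333fs. The gene lies at chr1:33513999-34165842 (minus strand), with 13920 bases in 73 merged exons. The libraries gave 3.05, 2.53 and 2.60 CPM in control, 1.99, 2.22 and 1.99 with Splice del, 1.77, 1.53 and 2.24 with C321fs, and 0.613, 0.415 and 0.616 with A333fs. Control was above all mutant libraries and A333fs below all others, and Splice del and C321fs overlapped. Against control, the log2 fold change was -2.30 (SE 0.20) in A333fs, -0.40 (SE 0.16) in Splice del and -0.56 (SE 0.16) in C321fs. After removal of the GC trend the A333fs value was -2.03 and the other values were -0.20 and -0.30. With 1 library left out, the C321fs value ran from -0.72 to -0.45. A333fs also differed from Splice del by -1.90 (SE 0.21) and from C321fs by -1.74 (SE 0.21), and by -1.83 and -1.73 with the trend removed. CSMD1, a paralog, was at -0.07, -0.23 and -0.07 against control in Splice del, C321fs and A333fs and was not called, and CSMD3 had at most 1 count.

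KCNMA1 was the only one of the 6 genes whose libraries lay above control in some mutant lines and below it in another. It lies at chr10:76869601-77637819 (minus strand), with 15601 exonic bases. The libraries gave 22.9, 24.1 and 23.5 CPM in control, 29.4, 27.9 and 32.2 with Splice del, 13.8, 13.5 and 13.4 with C321fs, and 37.6, 35.4 and 38.0 with A333fs. No pair of lines overlapped, and the order from high to low was A333fs, Splice del, control and C321fs. The log2 fold change of KCNMA1 against control was 0.34 for Splice del (SE 0.06), -0.79 for C321fs (SE 0.07) and 0.65 for A333fs (SE 0.06). Genes of like GC content were also higher than control, with medians of 0.19, 0.19 and 0.26. With the trend removed, KCNMA1 was at 0.21, -0.83 and 0.46, and the A333fs value was then under the fold limit. The distance from C321fs was 1.14 (SE 0.07) for Splice del and 1.45 (SE 0.07) for A333fs, and 1.05 and 1.29 with the trend removed.

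The auxiliary beta subunits of the BK channel were not all counted. KCNMB1 had at most 4 counts in a library. KCNMB3 was higher in Splice del by 0.64 (adjusted p = 0.0060, edgeR quasi-likelihood F-test, Benjamini-Hochberg adjusted), and with the GC trend removed it was at 0.51 and not called. The call was also lost without control replicate 2 (0.52) or 3 (0.67) and without Splice del replicate 1 (0.52) or 2 (0.66). KCNMB2 ran from -0.27 to 0.19 and KCNMB4 from -0.17 to 0.22 against control, none of them called.

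BAIAP2 was lower than control in the 3 mutant lines. It lies at chr17:81035147-81117432 (plus strand), with 4897 exonic bases. The libraries gave 106, 130 and 114 CPM in control, 74.4, 76.8 and 80.9 with Splice del, 80.3, 73.4 and 79.6 with C321fs, and 74.1, 67.8 and 71.5 with A333fs. All 9 mutant libraries were below all control libraries, and C321fs overlapped with both of the other mutant lines. The log2 fold change of BAIAP2 against control was -0.60, -0.59 and -0.72 in Splice del, C321fs and A333fs (SE 0.07 each). With the GC trend removed it was -0.39, -0.36 and -0.37 (SE 0.05 each), outside the fold limit in all 3 lines. Without control replicate 2, the highest control library, it was -0.51 in Splice del and -0.51 in C321fs, also outside that limit. The Splice del value was outside it without Splice del replicate 1 (-0.57), and the C321fs value without C321fs replicate 2 (-0.55) or A333fs replicate 2 (-0.58) and in a fit of the 2 lines alone (-0.58). The exons of BAIAP2 share 137 bases with AATK on the other strand, and the counting did not use strand. AATK was at 0.650 to 0.980 CPM in the 4 lines.

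BCR was also lower than control in the 3 mutant lines. It lies at chr22:23180365-23318037 (plus strand), with 6927 exonic bases. The libraries gave 84.7, 87.0 and 85.3 CPM in control, 63.1, 63.9 and 66.4 with Splice del, 66.6, 65.6 and 65.8 with C321fs, and 56.8, 58.9 and 60.1 with A333fs. Control was above all mutant libraries, A333fs below all others, and Splice del and C321fs overlapped. The log2 fold change of BCR against control was -0.41, -0.38 and -0.55 (SE 0.05 each) in Splice del, C321fs and A333fs. All 3 values were under the fold limit. Removal of the GC trend left BCR at -0.19, -0.11 and -0.18 (SE 0.04 each). The sign of A333fs against Splice del turned with the trend removed, from -0.14 to 0.01 for BCR and from -0.12 to 0.02 for BAIAP2.

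The GC content of BAIAP2 and BCR is shared by genes that were also lower in the mutant lines. When tested genes were ranked by GC content and cut into 10 bins, the 1479 genes in their bin had medians of -0.25, -0.24 and -0.41 in Splice del, C321fs and A333fs. Across libraries, the slope of log2 CPM per 10 points of GC content was 0.107 to 0.187 in control, -0.217 to -0.132 for A333fs, -0.117 to 0.013 for C321fs and -0.113 to -0.024 for Splice del. The slopes moved with the line, and what sets them was not tested. NLGN1 and SHISA9, whose GC content is under the median of 49.6%, were lower in a range where other genes tended to be higher. For the paralogs, BAIAP2L1 was at -0.09, -0.03 and -0.27, BAIAP2L2 at 0.42, 0.09 and -0.60 and ABR, the paralog of BCR, at -0.21, -0.19 and -0.37, none called. ABR was at 0.05, 0.13 and 0.02 with the trend removed.

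**Figure D2:**
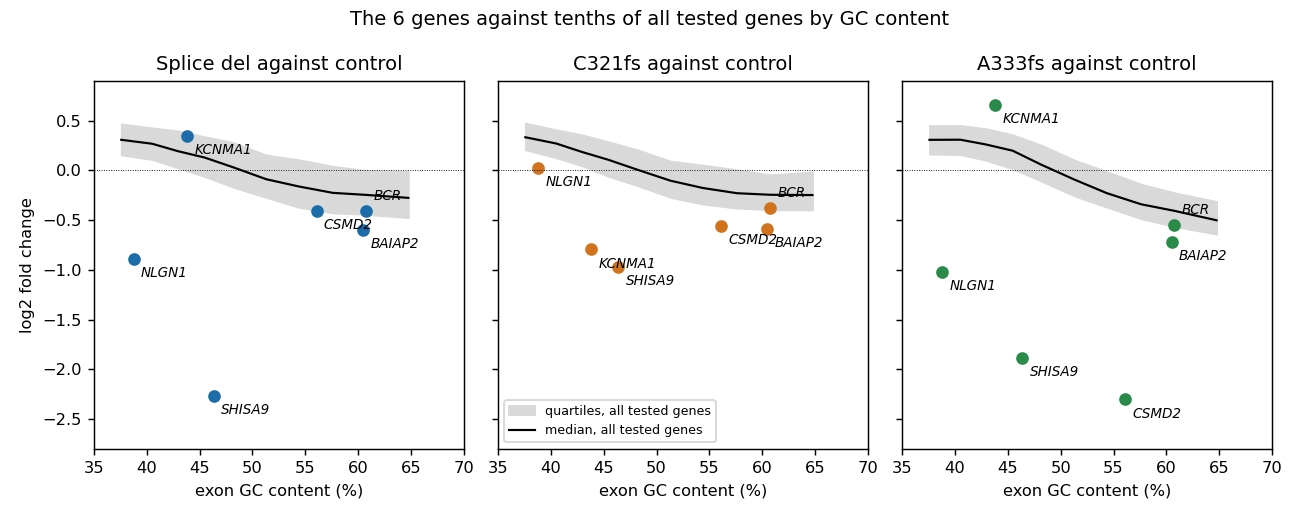
Log2 fold change against control (vertical axis) over exon GC content in percent (horizontal axis), 1 panel per mutant line, with the 6 genes as points and the median and quartiles of all tested genes in 10 bins of GC content as line and band. BAIAP2 and BCR lie below the line of the GC-rich genes, whose median is -0.25, -0.24 and -0.41. Far below the band lie SHISA9 in all panels, NLGN1 in Splice del and A333fs, CSMD2 in A333fs and KCNMA1 in C321fs.

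**Figure D3:**
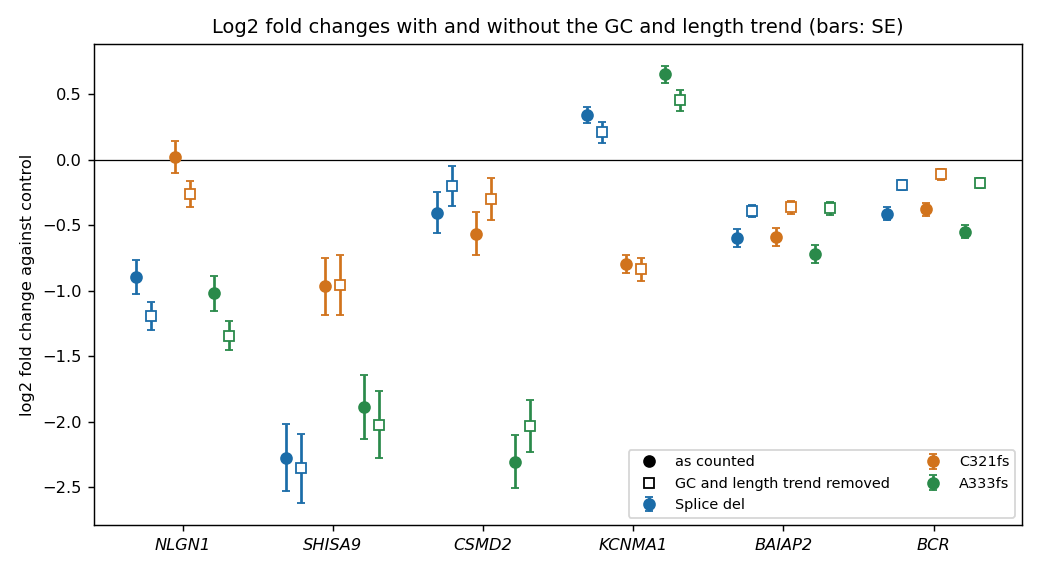
Log2 fold change against control (vertical axis) of each gene, with filled points as counted, open points after the trend over GC content and length was removed, and bars for the SE. BCR moves from -0.55 to -0.18 in A333fs, and SHISA9 in Splice del is at -2.27 and -2.35.

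The number of the 6 genes within the call limits was set by how they were chosen, and nothing is read from it. Against control, 3 were lower and 0 higher in Splice del, where 10.7% of all tested genes were called. In C321fs 3 were lower and 0 higher (6.88% called), and in A333fs 4 were lower and 1 higher (12.3% called). Between mutant lines, the counts were 1 higher and 2 lower for Splice del against C321fs (2.64% called), 1 higher and 2 lower for A333fs against C321fs (5.55% called), and 0 higher and 1 lower for A333fs against Splice del (3.0% called). With the GC trend removed, 2, 2 and 3 were within the limits against control in Splice del, C321fs and A333fs, all lower, where 6.9%, 4.67% and 5.39% of all tested genes were called. Libraries did not overlap with control for 6, 5 and 6 of the 6 genes, where 62.9%, 54.1% and 65.5% of all tested genes did not overlap. Between mutant lines, 3 of the 6 did not overlap for Splice del and C321fs (29.7% of all tested genes), 5 for A333fs and C321fs (40.6%), and 4 for A333fs and Splice del (46.3%).

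Between genes, levels were compared per kilobase of exon. In control, BAIAP2 was at 23.9 CPM per kilobase and BCR at 12.4, KCNMA1 at 1.51 and NLGN1 at 1.25, and SHISA9 and CSMD2 at 0.218 and 0.196. The last pair did not differ beyond the spread of the libraries. SHISA9 also varied most between libraries of a line, with an SD of 0.35 in log2 CPM, against 0.03 in BCR.

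For each member, the genes with the most similar profile were those with the smallest root mean square difference in centred log2 CPM over the 12 libraries. For NLGN1 these were PPP2R2C (0.17), SASH1 (0.18) and GRIK3 (0.18), and for KCNMA1 ALDH1A3 (0.13), PHLDA1 (0.14) and DLL1 (0.15). The nearest genes of BAIAP2 were INTS1 (0.04), SMPD4 (0.05) and WDR62 (0.05), and those of BCR were UHRF1 (0.03), UBQLN4 (0.04) and TAF6 (0.04). SHISA9 and CSMD2 had no gene as near, with PXDNL (0.39), ACOX2 (0.41) and LOC90768 (0.42) for SHISA9 and SLC8A2 (0.37), SPINK13 (0.40) and LOC440461 (0.40) for CSMD2.

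Other genes of the synapse were followed through 6 lists with 198 genes, none of them a member, of which 123 were tested. The lists were chosen with earlier results of these data known. Their shares of called genes are set beside those of all tested genes as a description, and the difference was not tested. They moved in both directions. Against control, edgeR's quasi-likelihood test called 10 higher (8.13%) and 5 lower (4.07%) in Splice del, where 6.21% and 4.53% of all tested genes were called in these directions. In C321fs 8 were higher (6.50%) and 3 lower (2.44%), against 4.63% and 2.26% of all tested genes. In A333fs 9 were higher (7.32%) and 13 lower (10.6%), against 5.46% and 6.81%. The higher calls include GRIA2 and CAMK2B in all 3 lines and CBLN2 in A333fs. These genes passed the filter only through mutant libraries and could only be called higher. GRIA2 and CBLN2 had at most 1 count in a control library, and CAMK2B at most 6. KCNN4 and FLRT3, called higher in A333fs, had at most 12 counts in a control library. With at least 10 counts required in every library, 10, 6 and 3 were higher in Splice del, C321fs and A333fs. The median log2 fold change of the listed genes was 0.03, -0.02 and -0.07, and that of all tested genes 0.03, 0.02 and 0.01. With the GC trend removed, the counts were 12 and 4 for Splice del, 10 and 1 for C321fs, and 9 and 4 for A333fs. In that fit 6.9%, 4.67% and 5.39% of all tested genes were called in either direction. The split depended on the scaling: with library totals alone 22 were higher and 4 lower with Splice del, 18 and 0 with C321fs, 14 and 6 with A333fs, and upper-quartile scaling gave 15 and 4, 11 and 1, and 11 and 7. Between mutant lines 5 were higher and 2 lower in Splice del against C321fs, where 1.76% and 0.879% of all tested genes were called. For A333fs against C321fs the counts were 6 and 11 (2.47% and 3.08% of all), and for A333fs against Splice del 3 and 6 (1.03% and 1.97% of all). Without control replicate 1 or without C321fs replicate 3, 5 genes were higher in C321fs, and without control replicate 2 only 1 was lower there. Without Splice del replicate 3, 2 genes were lower in A333fs against Splice del.

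Glutamate receptor genes had calls in both directions. Of 15 tested genes of receptors and auxiliary subunits, 3 were called higher and 3 lower with Splice del, 2 and 1 with C321fs, and 4 and 4 with A333fs. In a list of this size, 1 gene is already a share of 6.67%. Among all tested genes, 6.21% were called higher and 4.53% lower with Splice del. With C321fs these shares were 4.63% and 2.26%, and with A333fs 5.46% and 6.81%. Without the GC trend the counts of the receptor list were 4 and 3, 3 and 0, and 3 and 2. Among the kainate receptor subunits, GRIK3 and GRIK4 fell, whereas GRIK1, named after its values were seen, rose in A333fs by 1.69 (adjusted p = 5.8e-05, edgeR) and by 1.55 with the GC trend removed. GRIK3 went from 54.2 ± 3.46 CPM in control (SD, n = 3) to 27.8 ± 0.425 in Splice del and 22.4 ± 1.45 in A333fs, or -0.96 on the log2 scale in the former (adjusted p = 5.9e-08) and -1.27 in the latter (adjusted p = 2.4e-09, edgeR quasi-likelihood F-test, Benjamini-Hochberg adjusted). It was at -0.36 in C321fs, under the fold limit. GRIK4 fell by 0.99 in Splice del and by 1.34 in A333fs on the log2 scale, and its -0.59 in C321fs was -0.43 and not called with the GC trend removed. The C321fs call was also lost without control replicate 2 (-0.56), C321fs replicate 3 (-0.57) or A333fs replicate 2 (-0.58). Upper-quartile scaling (-0.50), library totals alone (-0.42), a filter of 10 counts in every library (-0.57) and a fit of the 2 lines alone (-0.58) lost it too.

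GRM4 and GRIA2 were called higher in all 3 mutant lines. GRM4, a metabotropic receptor, rose from 0.768 ± 0.121 CPM in control to 4.88 ± 0.441 with Splice del, 1.62 ± 0.256 with C321fs and 3.83 ± 0.126 with A333fs. Its log2 fold changes were 2.66, 1.08 and 2.31 (largest adjusted p = 0.00029, edgeR quasi-likelihood F-test, Benjamini-Hochberg adjusted). GRIA2, an AMPA receptor subunit, had 0 or 1 count in the control libraries and 9 to 24 in the mutant libraries. It passed the filter on low counts only through mutant libraries, so it could only be called higher. Against a floor of 3 counts per control library, it was at least 5.60-fold higher with Splice del, 3.41-fold with C321fs and 4.89-fold with A333fs.

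Among 32 tested postsynaptic scaffold genes, 2 were called higher and 1 lower with Splice del, 3 and 0 with C321fs, and 1 and 5 with A333fs. The shares were 6.25% and 3.1%, 9.4% and 0%, and 3.1% and 15.6%. Of all tested genes, 6.21% and 4.53%, 4.63% and 2.26%, and 5.46% and 6.81% were called higher and lower. The 5 lower scaffold calls of A333fs became 0 with the GC trend removed. NSMF, a synapse-to-nucleus messenger, was at -0.65 in Splice del and -0.65 in A333fs, and at -0.40 and -0.21 with the trend removed, no longer called. The NSMF calls were also lost without control replicate 2, at -0.55 and -0.56. They were lost with upper-quartile scaling (-0.55 and -0.54) and with library totals alone (-0.46 and -0.50) as well. CAMK2B, a subunit of calcium/calmodulin-dependent kinase II, had 3 to 6 counts in control libraries and 11 to 25 in mutant libraries. It also passed the filter on low counts only through mutant libraries, so it could only be called higher, and its p-values are no independent support. It rose by 1.94 for A333fs, 1.64 for Splice del and 1.54 for C321fs on the log2 scale (largest adjusted p = 0.0081, edgeR quasi-likelihood F-test, Benjamini-Hochberg adjusted). Its Splice del call was lost without control replicate 1 (1.59), control replicate 2 (1.41) or Splice del replicate 1 (1.25). Its C321fs call was lost without control replicate 1 or 2, Splice del replicate 3, C321fs replicate 1, 2 or 3, or A333fs replicate 1, at values of 1.31 to 1.66. DESeq2 did not call CAMK2B in C321fs (1.55, DESeq2 adjusted p = 0.013). LIN7A, a PDZ domain scaffold, rose by 0.88 in Splice del and 0.78 in C321fs. The Splice del call of LIN7A was lost without Splice del replicate 2 (0.78), and its C321fs call without control replicate 1, 2 or 3 or C321fs replicate 1 or 3, at 0.70 to 0.83. LIN7A in C321fs was not called by DESeq2 either (0.77, DESeq2 adjusted p = 0.014).

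CHN2, a Rac GTPase-activating protein, rose by 2.13, 1.40 and 1.37 on the log2 scale in Splice del, C321fs and A333fs (largest adjusted p = 5.2e-05, edgeR quasi-likelihood F-test, Benjamini-Hochberg adjusted). SRGAP3, another GTPase-activating protein and named after its values were seen, went in opposite directions. It stood at 31.6 ± 0.398 CPM in control (SD, n = 3), 51.1 ± 1.97 with Splice del, 19.0 ± 1.15 with C321fs and 43.4 ± 1.89 with A333fs. SRGAP3 rose by 0.70 in Splice del (adjusted p = 3.2e-07, edgeR) and changed by -0.73 in C321fs (adjusted p = 8.5e-07, edgeR), and with library totals alone the latter was -0.57 and not called. Of 22 tested synaptic adhesion genes, the group of NLGN1, 1 was called higher and 1 lower with Splice del, 1 and 0 with C321fs, and 2 and 2 with A333fs. As shares these are 4.55% and 4.55%, 4.55% and 0%, and 9.09% and 9.09%. Over all tested genes, shares higher and lower were 6.21% and 4.53% (Splice del), 4.63% and 2.26% (C321fs), and 5.46% and 6.81% (A333fs). The higher adhesion calls of A333fs were CBLN2 and FLRT3, with at most 1 and 12 counts in a control library. Of 7 tested calcium-activated potassium channel genes, 1 was higher in Splice del and 1 higher and 1 lower in A333fs. Each such call is a share of 14.3%, and the higher A333fs call was KCNN4, with at most 12 counts in a control library. Of 9 tested CUB and Sushi or complement regulator genes, 1 was higher in C321fs, a share of 11.1%.

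**Figure D4:**
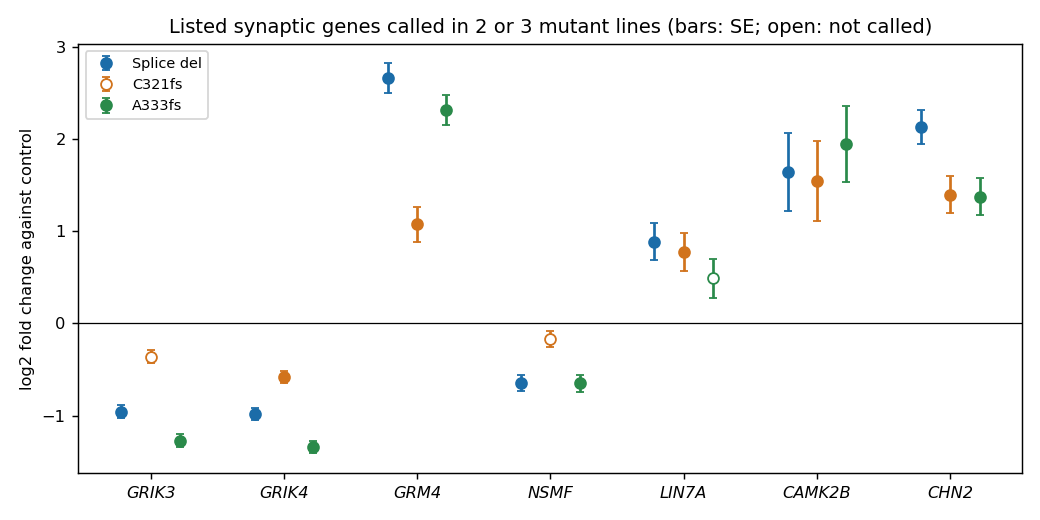
Log2 fold change against control (vertical axis) of 7 listed genes called in 2 or 3 mutant lines, with 1 point per line, bars for the SE and open points where the gene was not called. GRIK3 and GRIK4 lie below 0 in all lines, and GRM4 reaches 2.66 in Splice del and 1.08 in C321fs.

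Neuron markers were not called in any comparison. Of the 8 that were tested, edgeR's quasi-likelihood test called 0 and DESeq2 0 in each of the 6 comparisons, and 1 to 4 of the 8 had an unadjusted p under 0.05.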

How the data were processed

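RNA-seq of T47D cells with the empty vector or 1 of 3 GATA3 mutants was used, 3 libraries per line. After trimming with Trimmomatic and alignment to hg38, the authors deposited whole-number counts of properly paired fragments per gene from featureCounts 1.6.4. The counts are not normalized, replicates are not pooled and strand was not used. The sources differ on the aligner: the submitters' processing notes list HISAT2, and a folder name in the file header names STAR. Libraries held 27872208 to 36788024 counted fragments.

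Genes were kept with filterByExpr by line (14789 of 26485), scaled with TMM factors and modelled over all 12 libraries in edgeR 4.0.16 (glmQLFit, glmQLFTest; R 4.3.3), without covariates. Calls needed a Benjamini-Hochberg adjusted p under 0.01 and a fold change over 1.5. The GC check took exon GC content from hg38 and fitted, per library, loess trends (span 0.3) over GC content and then log2 exon length on genes outside the members and lists, which entered the fit as offsets. The method was tested on simulated data. DESeq2 1.42.0 was an alternative, with other scalings, filters and left-out libraries. All 198 list genes were found in the file.

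The members and gene lists were chosen with earlier results of these data known. Named genes were the members, the 3 genes nearest to each in profile, their family members in the lists, and the list genes called in the same direction in at least 2 mutant lines (at most 5 per list). Outside this rule, GRIK1 and SRGAP3 were named after their values were seen, and CBLN2, FLRT3 and KCNN4 for their low control counts. Libraries were not paired by replicate number. The floor was 3 counts per library, and a fold against a line at or under it is a lower bound. The separate counts of 1 gene list are not reported here.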

Additional observations from a re-analysis of the deposited data

Results flagged for a closer look

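KCNMA1 moved in opposite directions in the mutant lines. Every Splice del and A333fs library was above every control library and every C321fs library below, so that the log2 fold change against control was 1.14 higher in Splice del and 1.45 higher in A333fs than in C321fs. The difference was not tested, since KCNMA1 was chosen with its fold changes known.

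For the list genes named in the report the difference between mutant lines was tested with the edgeR quasi-likelihood F-test, Benjamini-Hochberg adjusted. The lists were chosen with earlier results of these data known, so these p-values are not independent support. SRGAP3 and GRIK1 were moreover picked after their values in these lines were seen. GRIK3 differed by -0.60 between Splice del and C321fs (adjusted p = 2.3e-05) and by -0.91 between A333fs and C321fs (adjusted p = 1.5e-07). GRIK4 differed by -0.76 between A333fs and C321fs (adjusted p = 6.2e-07). GRM4 was higher than in C321fs by 1.58 in Splice del (adjusted p = 8e-07) and by 1.23 in A333fs (adjusted p = 8.7e-06). CHN2 was higher in Splice del than in C321fs by 0.73 (adjusted p = 0.0042), and A333fs minus Splice del was -0.75 (adjusted p = 0.0022). SRGAP3 was higher than in C321fs by 1.43 in Splice del (adjusted p = 2.5e-10) and by 1.19 in A333fs (adjusted p = 1.1e-09). GRIK1 was higher in A333fs than in C321fs by 1.39 (adjusted p = 0.00072) and than in Splice del by 2.08 (adjusted p = 7.7e-05). These calls held with the GC trend removed. The first GRIK3 call was lost without C321fs replicate 3 (-0.55) and with library totals alone (-0.58). The first CHN2 call was lost without any 1 of the Splice del libraries or without C321fs replicate 1 or 2 (0.70 to 0.75), and the second without Splice del replicate 3 (-0.72) or A333fs replicate 1 (-0.63).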

How the results depend on the processing

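Of 66 fold changes recomputed, none turned its direction while called. Of 1436 recomputations, 1326 kept their side of the call limits or, for the members, moved by less than the spread between libraries. A further 71, all of members, moved by more, 38 of list genes lost a call and 1 gained one. Members that left the call limits are not counted separately in these numbers. The counts that follow are of list genes. With library totals alone, which moved the median of all genes against control to 0.22, 0.19 and 0.16, 22, 18 and 14 were called higher in Splice del, C321fs and A333fs, 0 lower in C321fs and 6 lower in A333fs, and 1 lower in Splice del against C321fs. With upper-quartile scaling (medians 0.12, 0.11 and 0.12), 1 was lower in C321fs and 7 in A333fs. DESeq2 called 5 higher in C321fs. With at least 10 counts in every library, 1 was lower in C321fs, 3 were higher in A333fs, 3 higher in A333fs against C321fs and 0 higher in A333fs against Splice del. SHISA9 had no value under this filter. With the GC trend removed, 1 was lower in C321fs and 4 in A333fs. An adjusted p of 0.05 gave 10 lower in A333fs against Splice del. BAIAP2 left the fold limit in all 3 lines with library totals alone and with the GC trend removed, and in Splice del and C321fs with upper-quartile scaling (-0.50 each) and the filter of 10 counts (-0.58 and -0.57). The cause of the BAIAP2 difference was not tested.

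Leaving out 1 library gave 8 to 11 higher and 4 to 6 lower in Splice del, 5 to 8 and 1 to 3 in C321fs, and 8 to 10 and 10 to 13 in A333fs. Between lines it gave 4 to 5 and 2 to 2 for Splice del against C321fs, 5 to 7 and 9 to 11 for A333fs against C321fs, and 2 to 3 and 2 to 7 for A333fs against Splice del.

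Replicate numbers share only a number: over 18 pairs the correlation of same-numbered residuals was -0.12 to 0.17, with 2 over 0.1. The replicate block gave 10 higher and 5 lower in Splice del and changed no call count by over 1.5 times. The replicate block with the GC trend removed gave 1 lower in C321fs, 4 in A333fs and 3 in A333fs against Splice del. Depth limits SHISA9 and CSMD2, with at most 72 and 90 counts in a library.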
